A study of Caenorhabditis elegans with 18 samples.

Results

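Messenger RNA of the Wnt ligands and Frizzled receptors of Caenorhabditis elegans, with the β-catenin gene bar-1, was measured in whole animals of strain N2, the wild type, with Affymetrix arrays made for this species. These genes were 10 of the 17603 genes that had a uniquely mapped probe set. They were chosen by name: 5 Wnt ligands (egl-20, lin-44, mom-2, cwn-1 and cwn-2), 4 Frizzled receptors (mig-1, lin-17, cfz-2 and mom-5) and bar-1. A gene is represented by its unique probe set with the highest mean over the 18 conditions.

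Wnt proteins are secreted signals that bind Frizzled receptors on neighbouring or distant cells. In the β-catenin branch of the pathway a destruction complex removes β-catenin until a Wnt arrives, after which β-catenin acts with the TCF factor POP-1 on target genes. In C. elegans larvae Wnt signals steer migrating neuroblasts, set the polarity of dividing epidermal cells and act in vulval development, and in the embryo they polarise early blastomeres. Larvae that hatch without food halt in the first larval stage, before the postembryonic cell divisions, and develop further once fed.

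The groups were as follows. Fed larvae hatched into S-complete medium with 25 mg/ml of Escherichia coli HB101 and starved larvae into S-complete alone, at 20 °C, and both were collected 0, 1, 3, 6, 12, 15 and 24 h after hatching, with 0 h set at 50% hatched. Refed larvae spent 12 h without food and the next 3 h with it, and larvae with food removed spent 12 h with food and the next 3 h without. Larvae starved for 3 h in M9 buffer and embryos 2 h before hatching completed the set. All animals were N2, each culture held 10000 larvae whose hatching spanned 2.5 h, and the titles place fed larvae of 15 h between the first and second larval stage and those of 24 h in the second, so that food and stage cannot be told apart in these older larvae.

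The authors deposited 1 mean intensity for each condition, from 3 arrays of 3 biological replicates, with an error for that mean, and values below carry that error after ±. Each condition is therefore 1 sample, and differences carry an error propagated from both errors. The median intensity of a condition was 35.1 to 41.2, and 10873 to 12332 of the 22548 worm probe sets passed the authors' detection threshold of 1e-10. The arrays of fed and of starved larvae shared 0 hybridization days, so that food and day cannot be told apart between them. The M9 arrays were run on the 3 days of the fed arrays, and the refed and food-removed arrays on 1 day of their own, so that fed 3 h against M9 and refed against food removed are comparisons within days. Fed and M9 larvae differed in medium as well as in food, and these cannot be told apart there. Refed and food-removed larvae had opposite food for the first 12 h, so present food cannot be told apart from that history and its effect on stage. The sample type line of the 3 M9 array files carries the plus sign of the fed samples, although the title says that food was absent. Of the 495 probe sets whose fed and starved means at 3 h were more than 2 log2 units apart, 96.2% lay closer to starved than to fed larvae in M9.

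Detection differed between the genes. The probe sets of lin-44, cwn-1, cwn-2, mig-1, lin-17, cfz-2 and bar-1 were detected in 18 of 18 conditions. The probe set of egl-20 was detected in 15 and missed the threshold in fed larvae at 0 h and 24 h and in the embryo. That of mom-5 was detected in 10 conditions, and that of mom-2 in 1, the embryo. The authors' error was a median of 7.31% (cfz-2) to 16.1% (mom-5) of the mean for 9 genes, and 49.5% for mom-2. Levels of these genes are compared between conditions for 1 probe set at a time, never between genes.

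In the 7-time comparison of fed with starved larvae, the gene past the threshold was cwn-2, a Wnt that acts in neuronal migration and nerve ring placement. Its mean intensity in fed larvae was 92.3 ± 7.5, 76.3 ± 6.8, 58.6 ± 5.9, 47.7 ± 5.3, 59.2 ± 6.0, 41.5 ± 5.0 and 52.8 ± 5.6 at 0, 1, 3, 6, 12, 15 and 24 h. In starved larvae it was 68.5 ± 6.4, 51.6 ± 5.6, 44.5 ± 6.0, 43.0 ± 5.1, 44.0 ± 5.1, 40.4 ± 6.0 and 40.6 ± 6.3 at the same times. Fed larvae had the higher mean at 7 of 7 times, although the intervals set by the errors met at 6 h and at 15 h. The average log2 difference was 0.34 ± 0.07 (SE), a fold of 1.27 (limma adjusted p = 0.0119). The exact two-sided sign-flip permutation test over the same 7 differences gave p = 0.0156, the smallest it can give. That p follows from the same sign at 7 of 7 times, so it adds no separate evidence to that count. It was not adjusted for the number of genes tested. In a fit without time as a factor the adjusted p of cwn-2 was 0.173. Within the hybridization days of the fed arrays, cwn-2 had 58.6 ± 5.9 in fed larvae at 3 h and 52.7 ± 6.9 in M9 larvae, a log2 difference of 0.15 ± 0.24 (recomputed adjusted p = 0.957). Fed over starved in S-complete at 3 h it was 0.40 ± 0.24 (authors' deposited table, adjusted p = 0.641), and the 2 differences lie within their errors.

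**Figure D1:**
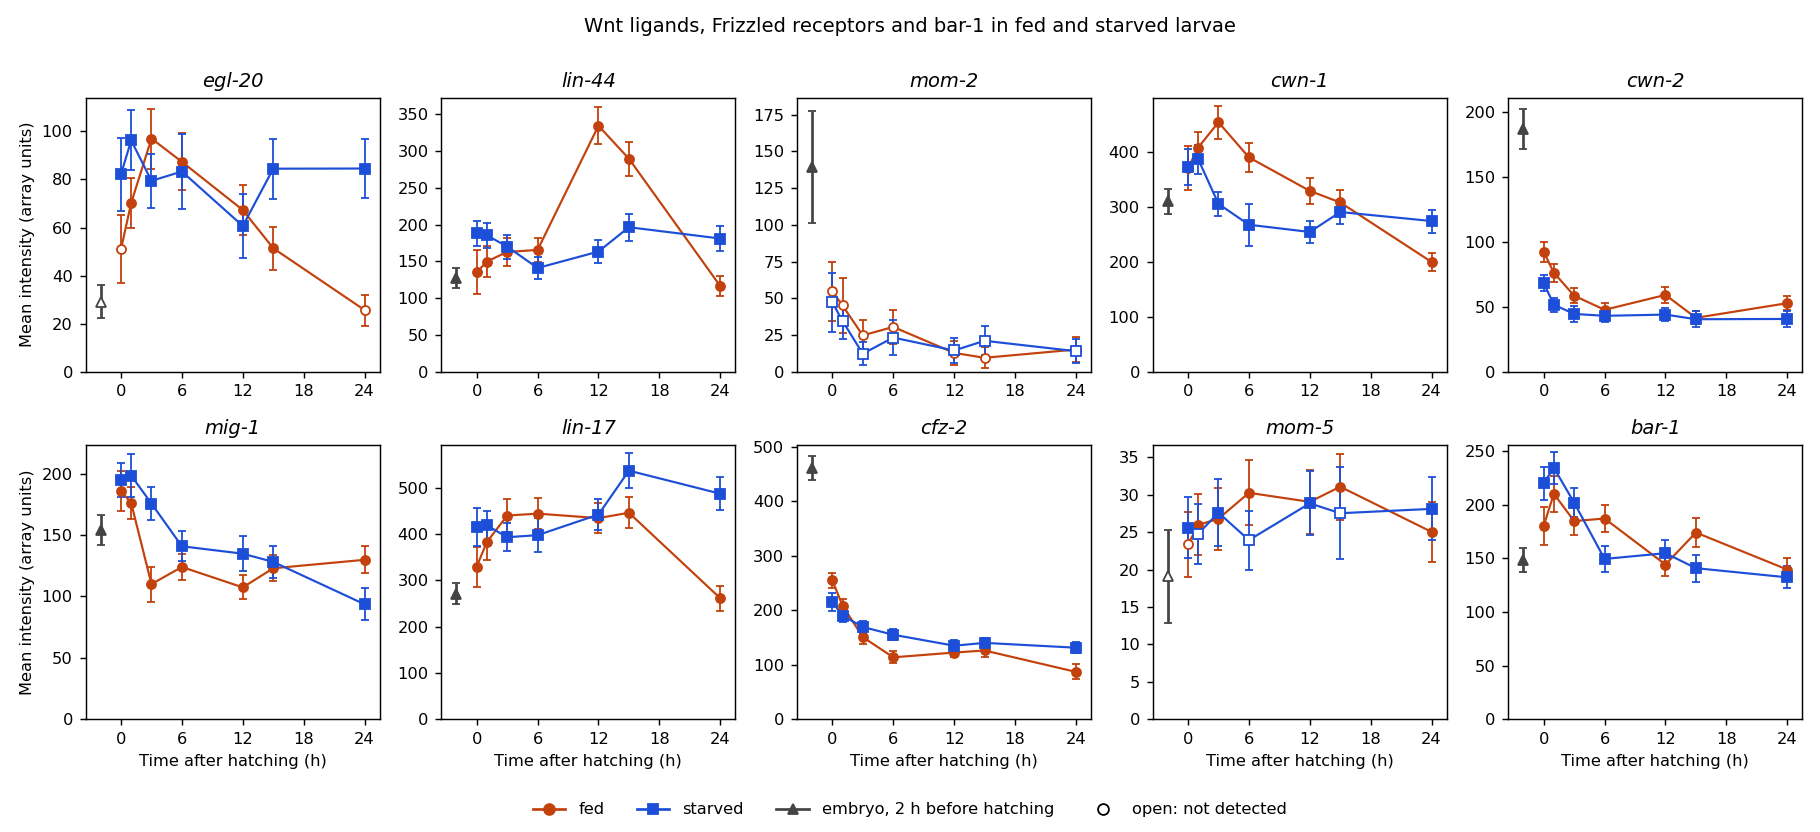
Mean intensity (y axis, array units, 1 scale per gene) against time after hatching (x axis, h) for the 10 genes in fed larvae (orange circles) and starved larvae (blue squares), with the embryo at the left (grey triangle); bars are the authors' errors and open symbols were not detected. The lin-44 curve of fed larvae peaks at 334 at 12 h, and cwn-2 and cfz-2 have their highest level in the embryo.

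Of the 10 genes 1 was called in this comparison, 1 higher and 0 lower in fed larvae. Among all 22548 probe sets limma called 30.3%, with 13.5% higher and 16.8% lower in fed larvae. The median log2 difference was 0.02 over the 10 genes and 0.00 over all probe sets. The test treats the 7 times as independent pairs, and its error comes from how the difference varied over them. For lin-44, cwn-1, mig-1, cfz-2 and bar-1 fed larvae were higher at some times and lower at others without overlap of the errors. For egl-20 and lin-17 the times without overlap were all lower in fed larvae, and for mom-2 and mom-5 the errors overlapped at 7 of 7 times. How many of all probe sets fall in each of these classes was not counted, so the classes only describe these genes. For mig-1 the higher fed mean at 24 h was on the chosen probe set only. On its second unique probe set the errors overlapped there, with 114 ± 12 in fed larvae and 105 ± 14 in starved larvae. The log2 differences were -0.44 ± 0.25 for egl-20, 0.17 ± 0.13 for cwn-1, 0.05 ± 0.21 for lin-44 and, from values that were not detected, 0.11 ± 0.24 for mom-2 among the ligands. Without 24 h, where the fed value of egl-20 was not detected, its difference was -0.23, and over the times from 0 h to 12 h it was -0.13. Among the receptors they were -0.19 ± 0.13 for lin-17, -0.16 ± 0.11 for cfz-2, -0.15 ± 0.12 for mig-1 and 0.04 ± 0.07 for mom-5, and bar-1 was at 0.00 ± 0.09. Without 24 h the difference was -0.07 for lin-17, -0.09 for cfz-2, -0.25 for mig-1, 0.27 for cwn-1 and 0.16 for lin-44. The adjusted p of these 9 genes ran from 0.224 for egl-20 to 1.0 for bar-1.

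The authors' own analyses of variance on the arrays bear on the same question with the spread between arrays. The authors' deposited table holds a p for the interaction of food with time, and after adjustment it passed 0.05 for 9 of 10 genes, against 54.7% of the probe sets with a value. It was smallest for mom-2 (adjusted p = 2.62e-07), lin-44 (3.96e-07) and lin-17 (6.71e-06), and mom-5 was the gene that missed (0.0637). The probe set of mom-2 was detected in no larval condition, so its p describes values that were not detected in larvae. The one-factor analysis in the authors' deposited table passed for 10 of 10 genes, against a background of 71.6%. The time term passed for 8 of 10 genes, against 60.5%, with egl-20 (adjusted p = 0.0779) and mom-5 (0.388) outside. The nutrition term passed for 7 of 10 genes, against 68.9%, with lin-17 (0.156), bar-1 (0.14) and mom-5 (0.0599) outside. The slope of the food difference on log2(h + 1) was called by limma for 0 of 10 genes, against 5.38% of all probe sets. With so few genes that count cannot be told apart from the share over all probe sets. The slope fit used 1 mean per condition and the authors' interaction term used the arrays, so their counts are not comparable. At an unadjusted p under 0.05 the slope passed for 1 of 10 genes, against 25.8% of all probe sets: cfz-2, with -0.14 ± 0.04 per doubling of h + 1 (limma adjusted p = 0.116).

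**Figure D2:**
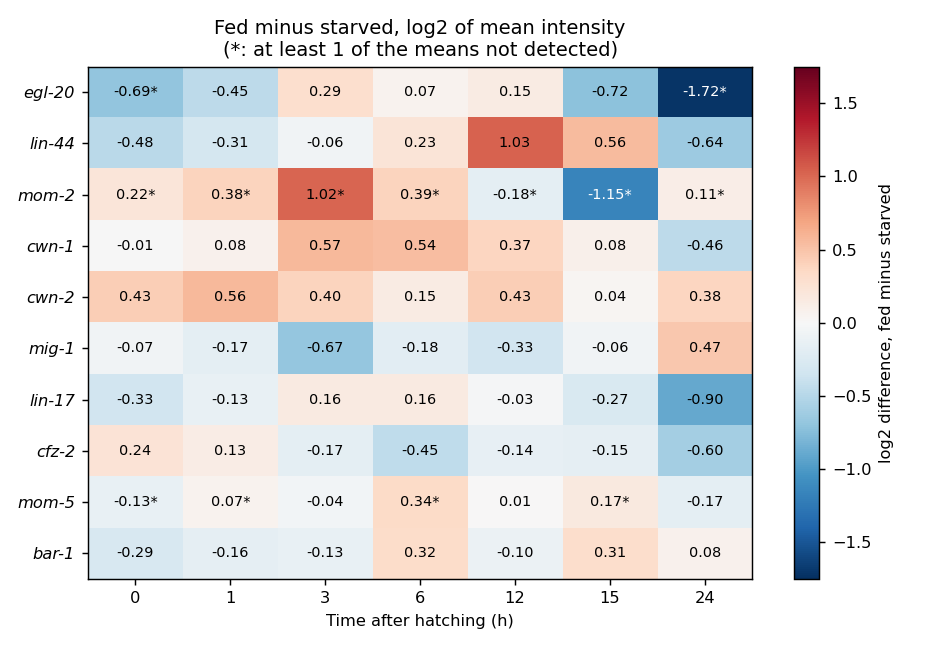
Log2 difference of mean intensity, fed minus starved, for each gene (rows) at each time after hatching (columns, h); red is higher and blue lower in fed larvae, with the value in each cell. The differences of lin-44 run from 1.03 at 12 h to -0.64 at 24 h, and those of egl-20 reach -1.72 at 24 h, where the fed mean was not detected; an asterisk marks each difference with a mean that was not detected.

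Pairs of conditions were read from the authors' deposited table of tests, with the p adjusted over all probe sets. In the 17 pairs that the authors' deposited table covers, 0 of 170 tests of these genes, with 1 chosen probe set per gene, passed an adjusted p of 0.05. At an unadjusted p under 0.05, 24 of 170 did (14.1%), against 17.9% over all probe sets in the same pairs. A test recomputed from the means and errors called 2 of 170 at an adjusted p of 0.05. In single pairs it called from 0.0% to 10.4% of all probe sets, with 9.61% and 2.86% in the pairs of these 2 calls. Outside the 170 tests, the second unique probe set of cfz-2 passed between fed and starved larvae at 24 h (authors' deposited table, adjusted p = 0.0299). Most of the 17 pairs called few probe sets at all. Between fed and starved larvae the authors' deposited tests called 0.0% of probe sets at 0 h, 0.00443% at 1 h, 1.03% at 3 h, 1.56% at 6 h, 9.89% at 12 h, 4.69% at 15 h and 7.78% at 24 h. The differences below are therefore given as values with their adjusted p.

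lin-44, a Wnt made by cells of the tail that orients asymmetric divisions there, had the largest food difference with all values detected among the chosen probe sets. Fed larvae had 135 ± 29.9, 149.7 ± 21, 163 ± 19, 165 ± 16, 334 ± 25, 289 ± 23 and 116 ± 13 at 0, 1, 3, 6, 12, 15 and 24 h. Starved larvae had 188 ± 17, 185 ± 17, 170.1 ± 16, 141 ± 15, 163 ± 16, 196 ± 18 and 181 ± 17 at these times. The starved series stayed within a 1.39-fold range, while the fed series spanned 2.87-fold. Fed larvae stood above starved larvae at 12 h and 15 h without overlap of the errors, and below them without overlap at 0 h and 24 h. The log2 difference at 12 h was 1.03 ± 0.18 (authors' deposited table, adjusted p = 0.0555), and the recomputed test, which called 9.61% of all probe sets there, gave an adjusted p of 0.0493. Against fed larvae of 6 h, those of 12 h had a log2 difference of 1.01 ± 0.18 (authors' deposited table, adjusted p = 0.118, with 0.248% of probe sets called).

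The high level of lin-44 did not extend to the second larval stage. Fed larvae of 24 h had 116 ± 13, against 289 ± 23 in fed larvae of 15 h, a log2 difference of -1.31 ± 0.20 (authors' deposited table, adjusted p = 0.298, with 0.0% of probe sets called). Larvae with food removed had 382 ± 28, the highest of the 18 conditions, against 289 ± 23 in fed larvae of 15 h (adjusted p = 0.58 from the authors' deposited table, with 0.00443% called) and 334 ± 25 in fed larvae of 12 h. Within 1 hybridization day, refed larvae had 173 ± 19, against 382 ± 28 in larvae with food removed. That is a log2 difference of -1.14 ± 0.19 (recomputed adjusted p = 0.0569), in a pair where the recomputed test called 4.48% of all probe sets.

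egl-20, a Wnt made in the posterior that directs the migration of Q neuroblast descendants, was lowest in the oldest fed larvae and in the embryo. Fed larvae had 51.0 ± 14.0, 70.2 ± 10.5, 97.0 ± 12.5, 87.3 ± 11.8, 67.3 ± 10.3, 51.4 ± 8.9 and 25.6 ± 6.4 over the 7 times, with 0 h and 24 h not detected. Starved larvae had 82.2 ± 15.1, 96.3 ± 12.4, 79.4 ± 11.2, 83.3 ± 15.7, 60.6 ± 13.2, 84.5 ± 12.5 and 84.6 ± 12.3. The errors of the groups overlapped from 3 h to 12 h, and at 0, 1, 15 and 24 h fed larvae were lower without overlap. At 24 h the log2 difference of the listed values, with the fed one not detected, was -1.72 ± 0.42 (authors' deposited table, adjusted p = 0.225; recomputed adjusted p = 0.0784). Refed larvae had the highest level of all conditions, 139 ± 21, against 84.5 ± 12.5 in starved larvae of 15 h, a log2 difference of 0.72 ± 0.31 (authors' deposited table, adjusted p = 0.357). Within 1 day, refed larvae had 139 ± 21, against 66.9 ± 10.2 in larvae with food removed, a log2 difference of 1.06 ± 0.31 (recomputed adjusted p = 0.167). After hatching, egl-20 had 82.2 ± 15.1 in starved larvae of 0 h, against 29.1 ± 6.8 in the embryo, where it was not detected (authors' deposited table, adjusted p = 0.158).

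cwn-1, a Wnt that acts in cell migration together with the other ligands, was highest early in feeding. Fed larvae had 371 ± 40.3, 409 ± 29, 455 ± 29.8, 391 ± 27, 329.5 ± 24, 308 ± 23 and 199.96 ± 17 over the 7 times. Starved larvae had 373 ± 33, 388 ± 27, 306 ± 22, 268 ± 38, 255 ± 21, 291 ± 22 and 275 ± 21. The groups coincided at 0 h and 1 h, fed larvae were higher at 3, 6 and 12 h without overlap of the errors, and fed larvae were lower at 24 h. At 3 h the log2 difference was 0.57 ± 0.14 (authors' deposited table, adjusted p = 0.0879). Within the shared hybridization days, fed larvae of 3 h had 455 ± 29.8, against 313 ± 28 in M9 larvae, a log2 difference of 0.54 ± 0.16 (recomputed adjusted p = 0.24, with 0.0% of probe sets called). Refed larvae had 469.8 ± 55, against 291 ± 22 in starved larvae of 15 h, a log2 difference of 0.69 ± 0.20 (authors' deposited table, adjusted p = 0.318, with 2.04% called). Against starved larvae of 12 h, with 255 ± 21, the log2 difference of refed larvae was 0.88 ± 0.21 (authors' deposited table, adjusted p = 0.168, with 3.21% called).

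mom-2, the Wnt that signals in the early embryo to polarise a blastomere, was detected in the embryo at 139.5 ± 38 and in no larval condition. Its means in larvae lay between 9.45 and 54.8 in the fed series and between 12.2 and 47.1 in the starved series, highest at 0 h in both. Refed larvae had 104 ± 42, not detected, against 21.03 ± 9.83 in starved larvae of 15 h and 7.8 ± 6.8 in larvae with food removed. Neither difference passed a test (authors' deposited table, adjusted p = 0.261 for refed against starved 15 h; recomputed adjusted p = 0.271 for refed against food removed). Since none of these larval values was detected, no fold is given for these pairs, and the difference over the 7 times describes values that were not detected.

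**Figure D3:**
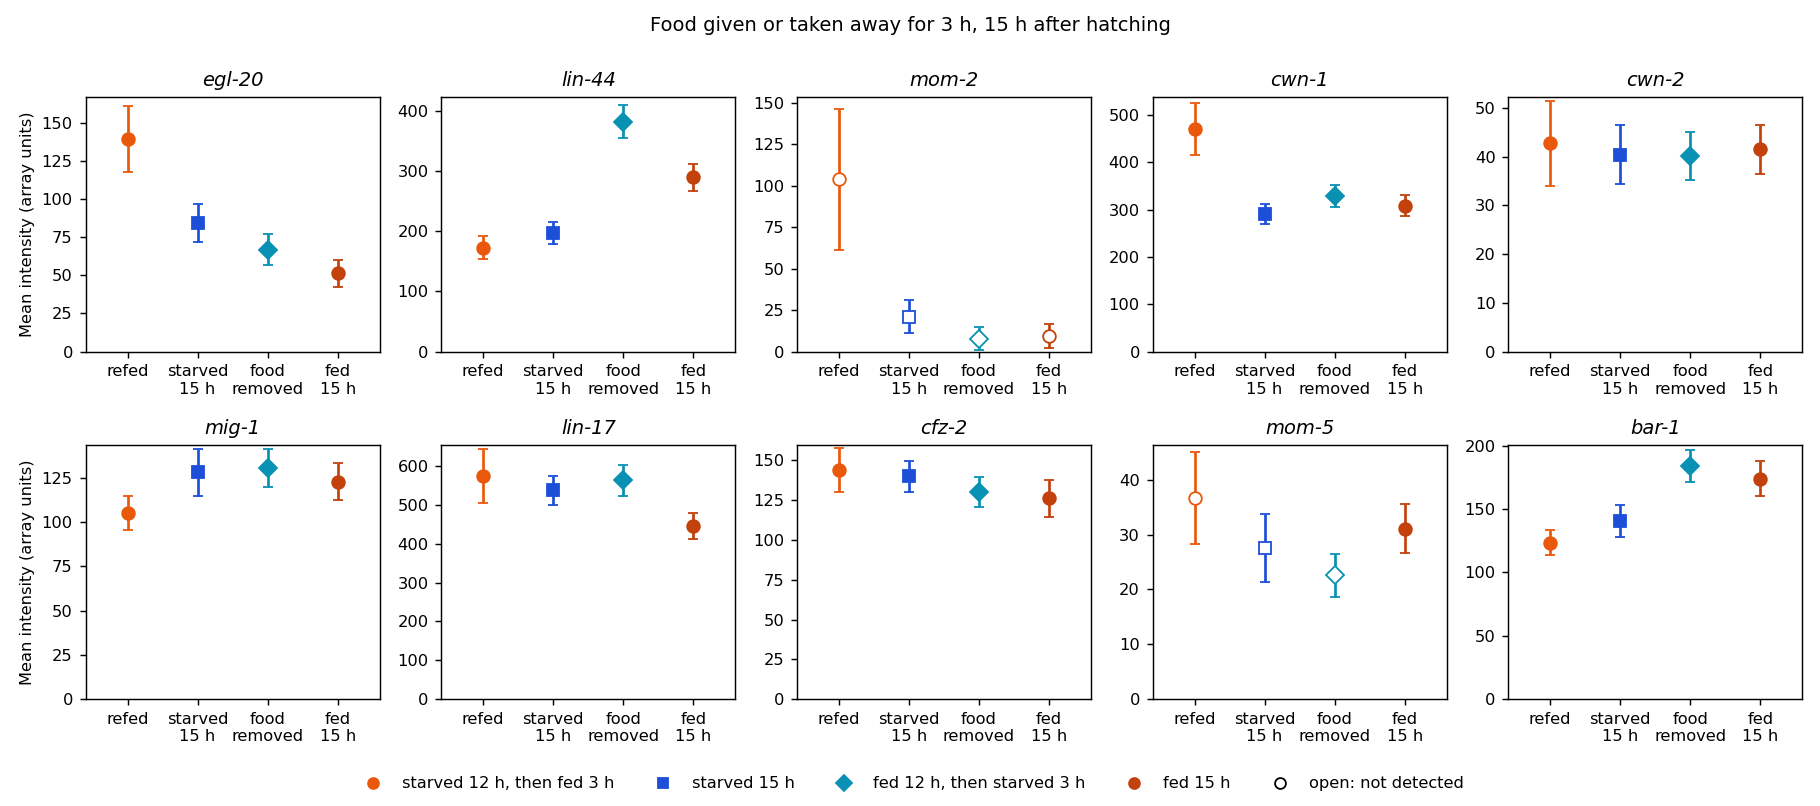
Mean intensity (y axis, array units) of the 10 genes in refed larvae, larvae starved for 15 h, larvae with food removed, and larvae fed for 15 h; bars are the authors' errors and open symbols were not detected. Refed larvae stand above starved larvae of 15 h for egl-20 (139 against 84.5) and cwn-1 (470 against 291), and larvae with food removed are highest for lin-44 (382).

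Among the receptors, mig-1, a Frizzled that acts in Q neuroblast migration, had a lower mean in fed than in starved larvae at 3 h. Fed larvae had 186 ± 16, 176 ± 13, 110.00 ± 14, 124 ± 11, 107 ± 9.8, 123 ± 11 and 129.8 ± 11 over the 7 times. Starved larvae had 195 ± 14, 198 ± 18, 176 ± 13, 141 ± 12, 135 ± 14, 128 ± 13 and 93.6 ± 12.9. Both series were lower at later times than at hatching, and the fed series reached its low level by 3 h, when the starved series was still at 176. The log2 difference at 3 h was -0.67 ± 0.22 (authors' deposited table, adjusted p = 0.329). Within the shared hybridization days fed larvae had 110.00 ± 14, against 178 ± 16 in M9 larvae, a log2 difference of -0.69 ± 0.23 (recomputed adjusted p = 0.268). Starved larvae of 24 h had 93.6 ± 12.9, against 195 ± 14 in starved larvae of 0 h, a log2 difference of -1.06 ± 0.22 (recomputed adjusted p = 0.0798, with 3.32% called). The second unique probe set of mig-1 gave 105 ± 17 in fed larvae and 145 ± 13 in starved larvae at 3 h, a log2 difference of -0.47 ± 0.27 (authors' deposited table, adjusted p = 0.461). On it starved larvae had 105 ± 14 at 24 h, against 155 ± 14 at 0 h, a log2 difference of -0.55 ± 0.24 (recomputed adjusted p = 0.28), smaller than on the first.

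lin-17, the Frizzled that receives LIN-44 in the tail, had 329.6 ± 43, 383 ± 39, 439.9 ± 36, 444 ± 33, 434 ± 32, 446 ± 33 and 261 ± 27 in fed larvae over the 7 times. Starved larvae had 415 ± 41, 419 ± 32, 393 ± 30.2, 398 ± 37, 442 ± 33, 537 ± 38 and 487 ± 35. The errors of the groups overlapped from 1 h to 12 h and stood furthest apart at 24 h. There the log2 difference was -0.90 ± 0.18 (authors' deposited table, adjusted p = 0.148; recomputed adjusted p = 0.0573). Its second unique probe set had 58.1 ± 9.5 in fed larvae and 172 ± 15 in starved larvae at 24 h. The log2 difference on it was -1.57 ± 0.27 (authors' deposited table, adjusted p = 0.186), larger than on the first. Refed larvae had 574 ± 69.5 and larvae with food removed 563 ± 39, which differed by less than their errors. Fed larvae of 24 h had the lowest mean of the 18 conditions for lin-17, and also for egl-20, lin-44, cwn-1 and cfz-2. The share of all probe sets that were lowest in fed larvae of 24 h was not counted.

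cfz-2, a Frizzled that acts in neuronal migration, had its highest level in the embryo. Embryos had 461 ± 22, and after hatching fed larvae had 255 ± 14, 209 ± 13, 151 ± 13, 114 ± 11, 122 ± 9, 126 ± 11 and 86.8 ± 13.7 over the 7 times. Starved larvae had 215 ± 17, 190.3 ± 12, 169 ± 11, 155 ± 10.4, 135 ± 9.6, 140.1 ± 9.8 and 131 ± 10.1. Fed larvae had the higher mean at 0 h and 1 h and the lower from 3 h on, and the errors did not overlap at 0, 6 and 24 h. On its second unique probe set the order at 3 h was the other way, with 116 ± 12 in fed larvae and 103 ± 7.9 in starved larvae, whose errors overlapped. At 24 h that probe set had 67.5 ± 9.2 in fed larvae and 97.5 ± 7.7 in starved larvae. The log2 difference was -0.53 ± 0.23 (authors' deposited table, adjusted p = 0.0299, with 7.78% called). On the first probe set the difference at 24 h was -0.60 ± 0.25 (authors' deposited table, adjusted p = 0.513). Starved larvae of 0 h had 215 ± 17, against 461 ± 22 in the embryo, a log2 difference of -1.10 ± 0.13 (authors' deposited table, adjusted p = 0.111, with 2.4% called). The recomputed test of that pair, which called 2.86% of probe sets, gave an adjusted p of 0.0498. Fed larvae of 0 h had 255 ± 14, a log2 difference from the embryo of -0.86 ± 0.11 (authors' deposited table, adjusted p = 0.223, with 0.0% called). Fed larvae of 24 h had 86.8 ± 13.7, against 255 ± 14 at 0 h, a log2 difference of -1.55 ± 0.24 (recomputed adjusted p = 0.0547, with 0.0% called). The second unique probe set had 139.6 ± 15 in starved larvae of 0 h and 305 ± 16 in the embryo.

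The ligand cwn-2 had the same order around hatching. Starved larvae of 0 h had 68.5 ± 6.4, against 187 ± 16 in the embryo, a log2 difference of -1.45 ± 0.18 (authors' deposited table, adjusted p = 0.0609; recomputed adjusted p = 0.0511). Fed larvae of 0 h had 92.3 ± 7.5, a log2 difference from the embryo of -1.02 ± 0.17 (authors' deposited table, adjusted p = 0.182). The embryo stood above each of the other 17 conditions beyond the errors for both cwn-2 and cfz-2 (unadjusted recomputed test). For lin-44 the order of starved larvae and embryo was the other way, with 188 ± 17 in starved larvae of 0 h and 127 ± 14 in the embryo (authors' deposited table, adjusted p = 0.145). Fed larvae of 0 h had 135 ± 29.9 of lin-44, a log2 difference from the embryo of 0.09 ± 0.36 (authors' deposited table, adjusted p = 0.877), within the errors. Embryo arrays shared hybridization days with the starved arrays, so the starved 0 h comparison lies within days and the fed one does not.

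mom-5, the Frizzled that receives MOM-2 in the embryo, was near the limit of detection on the probe set that the authors mapped to it. Its means lay between 23.4 and 31.1 in the fed series and between 23.9 and 28.9 in the starved series, and neither its highest nor its lowest condition stood apart from any other beyond the errors (unadjusted recomputed test). A second probe set that only the platform annotation names as mom-5 had no mapping in the authors' annotation and gave another picture. On it fed larvae were higher by a log2 difference of 0.45 over the 7 times (limma adjusted p = 0.0225), with 169 ± 35 in fed larvae and 106 ± 21 in starved larvae at 3 h. That probe set was set aside by the rule for choosing members and was looked at after its values were seen.

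bar-1, the β-catenin through which EGL-20 acts in Q neuroblasts and which acts in vulval precursor cells, had 180.3 ± 18, 210.1 ± 17, 185 ± 13, 187 ± 13, 144 ± 11, 174 ± 14 and 139 ± 11 in fed larvae over the 7 times. Starved larvae had 219.9 ± 15, 234 ± 15, 202 ± 13, 149 ± 12, 155 ± 12, 141 ± 13 and 132 ± 10.3. The groups crossed: without overlap of the errors, fed larvae were lower at 0 h and higher at 6 h and 15 h. Starved larvae of 0 h had 219.9 ± 15, against 149 ± 11 in the embryo, a log2 difference of 0.56 ± 0.15 (authors' deposited table, adjusted p = 0.128). Refed larvae had the lowest level of all conditions, 123 ± 9.9, against 184 ± 13 in larvae with food removed on the same day, a log2 difference of -0.58 ± 0.15 (recomputed adjusted p = 0.116).

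The 18 levels of each gene were ordered from high to low, which makes neighbouring levels as close as they can be. Of the 17 pairs of neighbours in the order, 1 differed beyond the errors for lin-44 (fed 15 h over starved 15 h), 1 for cwn-2 and 1 for cfz-2 (embryo over fed 0 h in both), and 0 for the other genes, by the unadjusted recomputed test. At the top, lin-44 in larvae with food removed exceeded 15 of the other conditions, egl-20 in refed larvae exceeded 8 and cwn-1 in refed larvae exceeded 5. At the bottom, fed larvae of 24 h were below 14 other conditions for cwn-1, 13 for egl-20, 13 for lin-17, 12 for cfz-2 and 7 for lin-44. The top and bottom conditions were picked by their values before this test, and such counts were not made over all probe sets.

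Larvae with food removed for 3 h were also set against larvae at the time of removal. Against fed larvae of 12 h, the authors' deposited tests called 0.0266% of probe sets, and cwn-2 had 40.1 ± 4.9 in larvae with food removed and 59.2 ± 6.0 in fed larvae of 12 h (adjusted p = 0.206). Fed larvae of 15 h, which had kept their food, had 41.5 ± 5.0, a log2 difference of -0.51 ± 0.23 from those of 12 h (authors' deposited table, adjusted p = 0.27, with 0.00887% called). The M9 larvae differed little from starved larvae in S-complete at 3 h: for the 7 genes detected everywhere the log2 differences lay between -0.08 for lin-44 and 0.24 for cwn-2, and the authors' deposited tests called 0.0% of probe sets.

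Genes with the most similar pattern were sought among 4410 probe sets of named genes, by Pearson's r of log2 mean intensity over the 18 conditions, which share cultures, days and normalization. The 3 nearest to cwn-2 were ceh-27 (r = 0.96), cam-1 (0.95) and tph-1 (0.95). Those nearest to cfz-2 were glc-4, set-11 and hot-2 (each 0.97), and 93 probe sets exceeded 0.9 for cfz-2. Those nearest to lin-17 were nob-1 (0.96), hlh-8 (0.86) and pqn-21 (0.86). For bar-1 they were unc-52 (0.93), lec-1 (0.91) and col-147 (0.89), and for mig-1 unc-22 (0.92), pes-7 (0.91) and clec-66 (0.90). For egl-20 they were pxn-1 (0.91), tag-185 (0.87) and mes-3 (0.87), and for cwn-1 goa-1 (0.87), lin-52 (0.85) and pcn-1 (0.85). For lin-44 they were fbxa-5 (0.87), his-59 (0.81) and ben-1 (0.80), and for mom-5 agt-1 (0.86), drr-2 (0.85) and npp-12 (0.84). Among the members themselves the pairs with r over 0.7 were cwn-2 with cfz-2 (0.84), egl-20 with lin-17 (0.79) and mig-1 with bar-1 (0.75). The embryo and fed larvae of 0 h and 24 h, where egl-20 was not detected, were the lowest conditions of both egl-20 and lin-17. The mom-5 probe set was not detected in 8 of the 18 conditions.

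The wider pathway was read in the 7-time comparison. Of 35 genes on its lists 34 were measured, and 2 were called higher and 8 lower in fed larvae (1 of the 8, gsk-3, was detected in 0 of 18 conditions). Among all probe sets 30.3% were called, 13.5% higher and 16.8% lower in fed larvae. The median log2 difference was -0.03 over the 34 genes, against 0.00 over all probe sets. Values given are log2 differences, fed minus starved, with their SE. In the destruction complex 2 detected genes of 6 fell in fed larvae and 0 rose: the scaffold apr-1, the worm APC relative, at -0.65 ± 0.10 (limma adjusted p = 0.00565), and the Axin relative pry-1 at -0.50 ± 0.07 (adjusted p = 0.00476). The probe set of the kinase gsk-3 also passed the threshold (adjusted p = 0.0242), but since it was detected in 0 of 18 conditions no difference is given for it. For apr-1 the mean over the 7 times was 260 in fed larvae and 403 in starved larvae, and for pry-1 it was 197 in fed larvae and 279 in starved larvae, each lower in fed larvae at 7 of 7 times.

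Among TCF and its kinase branch 2 of 4 genes fell in fed larvae, where 16.8% of all probe sets were lower and 13.5% higher. The 2 were the kinase mom-4 at -0.45 ± 0.09 (limma adjusted p = 0.0125) and its partner tap-1 at -0.29 ± 0.04 (adjusted p = 0.00274). The Nemo-like kinase lit-1 had 0.58 ± 0.21 (adjusted p = 0.0823). Of 6 measured Hox and other downstream genes 2 fell, the Hox genes mab-5 at -0.73 ± 0.20 (adjusted p = 0.0342) and lin-39 at -0.70 ± 0.16 (adjusted p = 0.0175). The mean of mab-5, which EGL-20 and BAR-1 switch on in Q neuroblasts, was 204 in fed larvae and 327 in starved larvae. In Wnt secretion 1 of 6 genes rose and 1 fell, the retromer subunit vps-29 at 0.54 ± 0.13 (adjusted p = 0.0238) and the Wntless gene mig-14 at -0.36 ± 0.10 (adjusted p = 0.0337).

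Of 6 other receptors and modulators 1 rose, where 13.5% of all probe sets were higher in fed larvae. It was the secreted Frizzled-related gene sfrp-1, at a log2 difference of 0.61 ± 0.10 (limma adjusted p = 0.00585). Its mean was 70.1 in fed larvae and 45.5 in starved larvae. The planar polarity gene vang-1 had the largest value of that list, 0.93 ± 0.51 (adjusted p = 0.217), and was detected in 5 of 18 conditions. None of 3 Dishevelled genes and none of 3 other β-catenins was called. The Dishevelled genes dsh-1 and mig-5 had -0.63 ± 0.21 (limma adjusted p = 0.0617) and 0.14 ± 0.05 (adjusted p = 0.0549). The β-catenin wrm-1 had -0.27 ± 0.17, and sys-1, detected in 2 of 18 conditions, had 0.29 ± 0.55. At an unadjusted p under 0.05 dsh-1, mig-5 and hmp-2 passed among the 6 Dishevelled and other β-catenin genes, against 42.4% of all probe sets. The gene hmp-2 was named after its values were seen.

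**Figure D4:**
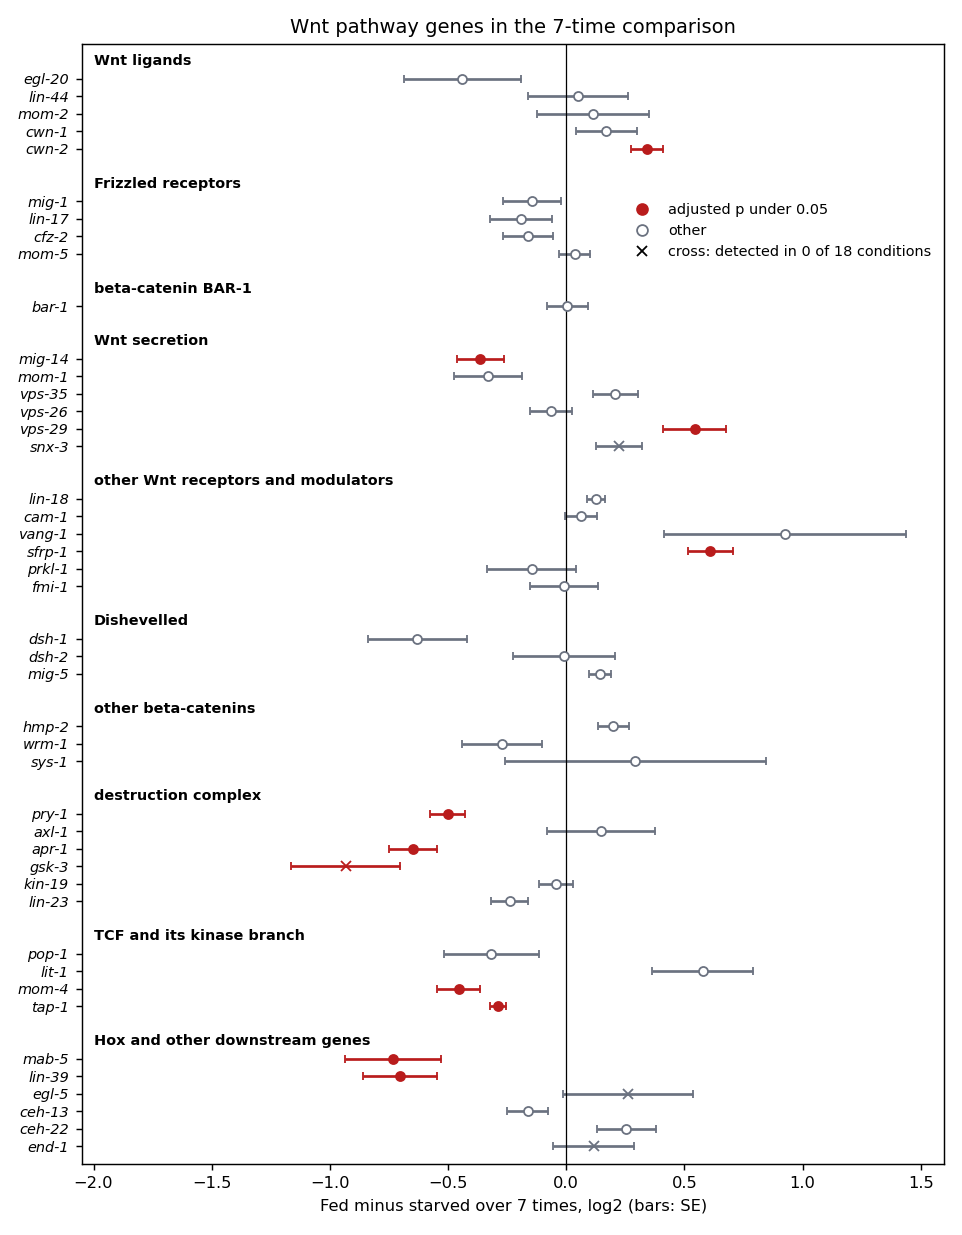
Log2 difference of fed minus starved larvae over 7 times (x axis; bars are SE) for the 10 genes and the wider Wnt pathway, grouped by role (rows); red symbols had an adjusted p under 0.05, and crosses mark genes detected in 0 of 18 conditions. Among the ligands and receptors cwn-2 is the filled point, and the filled points of the destruction complex, the kinase branch and the Hox genes lie left of 0, such as apr-1 at -0.65.

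Whole animals were measured, so fewer cells of a type and less RNA per cell cannot be told apart. Summed levels of tissue markers add different probe sets and are carried by the brightest: the first and second gene of a list held from 50.5% (body wall muscle) to 89.3% (intestine) of its sum. Of the tissue markers, 0 of 8 neuronal genes were called higher and 2 lower in fed larvae, against 13.5% higher and 16.8% lower among all probe sets. Their summed levels were 2796 to 4548 in fed larvae and 4408 to 6283 in starved larvae. The same shares stand beside the counts of the other marker lists. Of 6 hypodermal genes 2 were higher (dpy-7, detected in 2 conditions, and wrt-2, detected in 6) and 1 lower, with sums of 629 to 2381 in fed larvae and 686 to 930 in starved larvae. The body wall muscle list had 0 higher and 2 lower of 6 genes, with sums of 7031 to 12248 in fed larvae and 8081 to 14411 in starved larvae. The intestinal list had 1 higher and 2 lower of 6 genes, with sums of 4161 to 6715 in fed larvae and 2844 to 6649 in starved larvae, and end-3 was at the floor of 5 at all starved times. The germ line list had 2 higher and 0 lower of 5 genes, with sums of 240 to 650 in fed larvae and 187 to 322 in starved larvae. The part of these tissues in the differences of the Wnt genes was not tested.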

How the data were processed

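Expression was measured on 1-colour Affymetrix C. elegans arrays. The deposited values are intensity on a linear scale, the authors' mean of 3 biological replicates per condition with values below 5 set to 5, and an error in the same intensity unit, per the file headers and read-me. For the summarization software, the between-array normalization and the origin of the error, the sources used here give nothing. The authors' deposited detection score is a p of signal against background, called by the authors under 1e-10. The deposited p-value tables hold the authors' pairwise tests and analyses of variance, per the file headers; their scale and the conditions that entered are unstated there.

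Of the probe sets, 77 controls were left out and 22548 kept. Genes were named through the authors' WormBase release 180 mapping, and sfrp-1 and fmi-1 through the platform annotation; psa-3 had no unique probe set. Log2 means of 14 conditions were fitted with limma 3.58.1 in R 4.3.3 (lmFit, eBayes, time as a factor), which was tested on simulated data. The slope model added food times log2(h + 1). Benjamini-Hochberg adjustment over all probe sets with a value used a threshold of 0.05. Pairs used the authors' p; where their table has no such pair, and as an alternative, the difference of linear means was divided by the combined errors, with 4 degrees of freedom. The authors' error was taken as a standard error, and no test here carries the spread between cultures other than through it and the authors' p. Refed against food removed was added after the data had been seen. All 10 genes are named; wider lists name the genes past the threshold and up to 2 with the largest difference. Pattern neighbours were the 3 nearest named genes detected in at least 9 conditions. Lists of neuronal, body wall muscle, hypodermal, intestinal and germ line markers were read for tissue. The genes and lists were chosen with earlier results of these data known. Precision is limited by the number of arrays. Alternatives were a pseudocount of 16, quantile normalization, detected probe sets only, an intensity trend, a fit without the time factor, first-stage times only, time in hours, leaving out each time, other probe sets, the rounded series values, a stricter threshold of 0.01 and an exact permutation test.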

Additional observations from a re-analysis of the deposited data

Results flagged for a closer look

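For 9 of the 10 genes the effect of food differed between times by the interaction term of the authors' deposited analysis of variance. The adjusted p was 2.62e-07 for mom-2, 3.96e-07 for lin-44, 6.71e-06 for lin-17, 0.00018 for cwn-2, 0.000208 for cfz-2, 0.0015 for cwn-1, 0.00854 for mig-1, 0.0119 for egl-20 and 0.0382 for bar-1. The share of all probe sets past the same threshold was 54.7%. The mom-2 probe set was detected in no larval condition, and the food difference of lin-44 runs from 1.03 at 12 h to -0.64 at 24 h.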

How the results depend on the processing

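In the 7-time comparison cwn-2 was the 1 gene called, and its log2 difference ran from 0.26 to 0.39 over 15 alternatives. It was called in 14 of them at 0.05, and the lowest adjusted p, 0.00928, came from the rounded series values. The exact permutation test is among these 14 and was counted by its unadjusted p. Without the time factor 0 genes were called and the adjusted p of cwn-2 was 0.173. At the stricter threshold of 0.01 cwn-2 was not called in the main fit (limma adjusted p = 0.0119). Leaving out each time in turn kept the count at 1. The direction of some uncalled differences then turned: lin-44 ran from -0.12 without 12 h to 0.16 without 24 h, mom-2 from -0.038 without 3 h to 0.32, mom-5 from -0.015 without 6 h to 0.069, and bar-1 from -0.049 without 6 h to 0.053. Under quantile normalization mom-5 (-0.010) and bar-1 (-0.025) turned, and so did bar-1 (-0.070) over the first-stage times. Slopes turned without 24 h for egl-20 (-0.30 to 0.086), cwn-1 (-0.14 to 0.063), mig-1 (-0.012 to 0.17) and lin-17 (-0.18 to 0.038), and without 0 h for mom-5 (-0.028 to 0.060), also with time in hours (-0.0032). The mom-5 probe set of the platform annotation, added after seeing the data, had 0.45 and was called. Over all probe sets the count of 6831 was 3968 over first-stage times, and the slope count of 1214 ran from 26 without 1 h to 1964 with time in hours.

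In the 21 pairs 0 tests of these genes were called on the chosen probe sets. The recomputed test called 2: lin-44 at 12 h, where 9.61% of all probe sets were called, and cfz-2 in starved 0 h against embryo, where 2.86% were. The second unique probe set of cfz-2 was called between fed and starved larvae at 24 h (authors' deposited table, adjusted p = 0.0299). Adjusting over detected probe sets, which are fewer, called 5 (adjusted p, then the share of detected probe sets called in that pair): lin-44 at 12 h (0.0334, 26.8%) and in refed against food removed (0.0326, 21.5%), cwn-2 in starved 0 h against embryo (0.0367, 14.2%), mig-1 in starved 24 h against 0 h (0.0451, 15.0%) and cfz-2 in fed 24 h against 0 h (0.0313, 20.8%). At an adjusted p of 0.01 the analyses of variance called 29 of 40 tests of these genes, against 34 at 0.05. At 0.05 the single analyses called from 54.7% to 71.6% of the probe sets with a value, and that share was not counted at 0.01. Conditions were paired by time in the 7-time comparison. By replicate number, no paired analysis was possible because the 3 arrays of a condition are deposited as 1 mean.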
